A study of Mus musculus with 12 samples.

Results

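Isolated mouse islets kept at 11 mM glucose with the calcineurin inhibitor FK506 (11G+FK) were compared with islets kept at 11 mM glucose without it (11G). The comparison rests on 4 of the 12 libraries of the series, chosen by their group labels: 1 library per group from each of 2 mice, paired by the mouse number in the labels. Both groups came from wild-type C57BL/6 mice and both were treated for 4 h. The labels give no FK506 concentration and no vehicle for the 11G islets. The other wild-type groups, used below as reference levels and to estimate the spread, were low-glucose islets (2G), labelled untreated with no time, and islets at 11 mM glucose with diazoxide for 4 h (11G+D). The labels do not give age or sex, or say whether islets of several animals went into a library. With 2 mice a group, the p-values below rest on the spread left among the libraries once the difference between the mice is taken out. They speak for these 2 mice only.

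Calcineurin is a phosphatase that a rise in calcium switches on. FK506 (tacrolimus) binds the immunophilin FKBP12, and the complex of drug and immunophilin blocks calcineurin. In β cells glucose closes ATP-sensitive potassium channels, the membrane depolarizes and calcium enters, so calcineurin is one of the routes by which electrical activity reaches the nucleus. Its known substrates include the NFAT transcription factors and the CRTC coactivators of CREB, which enter the nucleus once dephosphorylated. Diazoxide holds the potassium channels open and so prevents the depolarization itself.

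With FK506, 37 of 16087 genes tested passed an adjusted p of 0.05, which is 0.23% of the genes tested. Of these, 35 were lower with FK506 (0.218% of the genes tested) and 2 were higher (0.0124%). All but 1 of them changed at least 2-fold, and 33 of the 35 lower genes code for protein. The genes that fell include nuclear receptors and other transcription factors (Nr4a1, Nr4a2, Vdr, Crem), signalling proteins (Rgs2, Pde5a, Irs2, Prlr) and β-cell effectors (G6pc2, Scg3, Atp2b4). The genes that rose were the clock output gene Dbp and the cytokine gene Csf3. Both FK506 libraries lay below both 11G libraries in 18.8% of all genes tested and in the 35 that fell, which the test had chosen for that difference. The fit used the 8 wild-type libraries with the mouse as a block, and log2 changes are given ± their standard error from that fit. A fit of only the 4 libraries of the 2 groups, which leaves 1 residual degree of freedom, passed 2846 genes, 1348 of them higher with FK506, and a fit without the replicate block passed 1. Leaving out 1 of the 4 libraries left between 0 and 11 genes past the test: 1 without the 11G library of mouse 1, 11 without that of mouse 2, 1 without the FK506 library of mouse 1 and 0 without that of mouse 2.

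The change was in the same direction in both mice for all 37 genes and for 11084 of all 16087 genes tested. The test, with the mouse as a block, favours genes that agree, so this is no separate support. The fall was larger in mouse 1 for 24 of the 35 that fell. The changes of the 2 mice in these 37 genes differed by 0.00 to 0.99 on the log2 scale. Across all 16087 genes the changes of the 2 mice correlated with a Pearson r of 0.353, and across the 12977 genes at a mean of at least 1 FPKM with 0.53. These correlations are across genes within 1 pair of mice, and genes are not independent replicates. Without any test, 132 genes (0.821%) were at least 2-fold lower in both mice, 129 (0.802%) at least 2-fold higher in both, and 74 (0.46%) moved at least 2-fold in opposite directions. The median log2 change over all genes tested was 0.01, with 8307 genes above 0 and 7780 below.

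**Figure D1:**
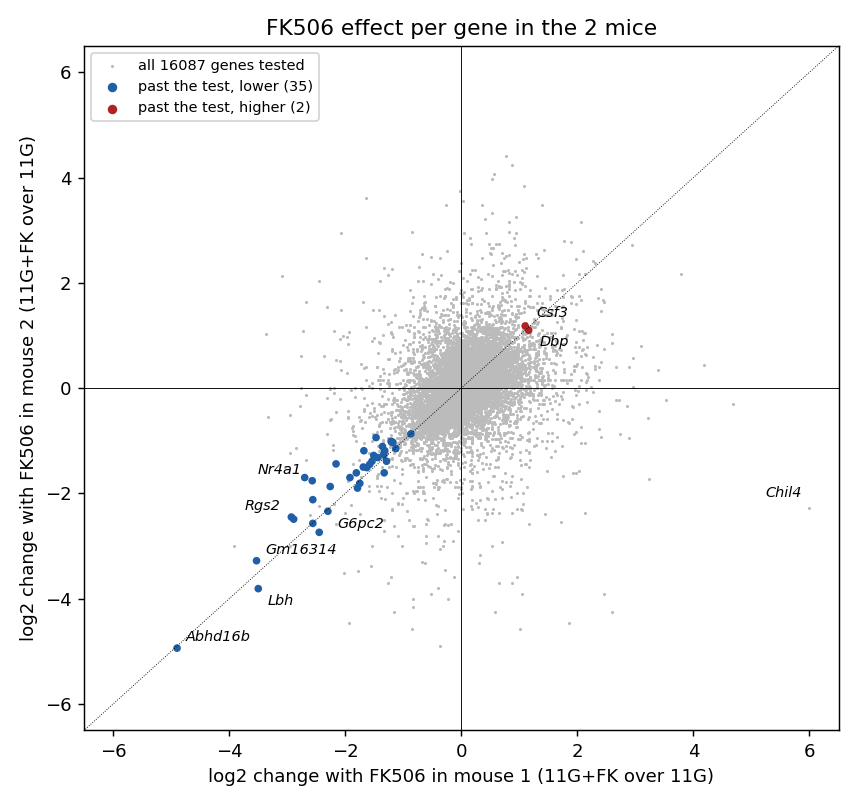
Each point is a gene, with its log2 change with FK506 (11G+FK over 11G) in mouse 1 on the x axis and in mouse 2 on the y axis; grey points are all 16087 genes tested, blue points the 35 that fell, red points the 2 that rose, and the dotted line marks equal change. The 37 coloured genes, which the test favours for a change shared by the mice, sit near the line, while Chil4 moved by 5.99 in mouse 1 and by -2.28 in mouse 2.

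Total counts were 21992513 and 18606190 in the 11G libraries of mice 1 and 2, and 17795331 and 16375631 in the FK506 libraries, and Ins2 took between 4.488% and 6.552% of each. Levels below are CPM, read counts scaled to a common library total with the fit's library factors, given for mouse 1 and then mouse 2. They compare a gene between libraries and not one gene with another, since they are not divided by length. The labels name β, α and δ cells, and the markers of these cells were present in every library. Ins2 stood at 70669 and 47233 CPM at 11G and at 63300 and 43148 CPM with FK506. Gcg, the α-cell hormone, stood at 12749 and 6547 CPM at 11G and at 9283 and 2696 CPM with FK506, and Sst, the δ-cell hormone, at 2117 and 1464 CPM against 1823 and 1318 CPM.

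The drug's targets come first. No gene of calcineurin, its regulators and the FK506-binding proteins passed the test: of 25 tested, 16 were above 0 and 9 below, with a median log2 change of 0.11 against 0.01 over all genes. Fkbp1a, which encodes FKBP12, was at 333 and 343 CPM at 11G and at 335 and 333 CPM with FK506. Ppp3ca, a catalytic subunit of calcineurin, differed by 0.32 ± 0.14 (adjusted p 0.447) and Ppp3r1, a regulatory subunit, by -0.46 ± 0.17 (adjusted p 0.373). These are transcript levels and carry no measure of phosphatase activity.

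Rcan1 encodes an inhibitor of calcineurin whose short form is itself transcribed through NFAT. It stood at 61.5 and 54.6 CPM at 11G and at 31.8 and 40.1 CPM with FK506, so that both FK506 libraries were below both 11G libraries. The difference of -0.71 ± 0.17 did not pass the test (adjusted p 0.171), and the gene-level counts do not separate its forms. The call depended on the settings: the adjusted p was 0.0409 with DESeq2 and the block and 0.0311 with no filter on low counts. In edgeR it was 0.128 with all 12 libraries, 0.178 under a filter at 10 CPM and 0.85 without the replicate block.

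The transcription cofactor gene Lbh had the smallest adjusted p of all genes. Its level was 1247 and 839.6 CPM at 11G and 110.4 and 59.7 CPM with FK506. At 2G it was 64.4 and 60.3 CPM, and with diazoxide 58.2 and 65 CPM. The 11G libraries thus stood apart from the other 6 wild-type libraries, with no overlap. Lbh fell by 3.63 ± 0.25 on the log2 scale with FK506 (adjusted p 0.000886), and it passed the test in 3 of the 4 fits that left out a library.

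The NR4A orphan nuclear receptors are immediate early genes that calcium and cAMP induce in many cell types. Nr4a1 was at 344 and 185 CPM at 11G and at 57.8 and 54.7 CPM with FK506, and Nr4a2 at 95.6 and 51.5 CPM against 16.2 and 11.8 CPM. Both FK506 libraries were lower than both 11G libraries for each gene. Nr4a1 fell by 2.23 ± 0.29 (adjusted p 0.0152) and Nr4a2 by 2.36 ± 0.23 (adjusted p 0.00373). The size of the Nr4a1 change rested in part on the 11G library of mouse 1, without which it was -1.61.

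Rgs2, a regulator of G-protein signalling that speeds GTP hydrolysis on Gα subunits, belonged to the same group of activity-induced genes. Its level was 180.4 and 83.6 CPM at 11G and 23.6 and 15.3 CPM with FK506, without overlap. It fell by 2.74 ± 0.35 (adjusted p 0.0139), and by 2.12 when the 11G library of mouse 1 was left out. Crem, a CREB-family gene whose short form ICER represses cAMP-driven transcription, went from 92.6 and 63.1 CPM at 11G to 34 and 25.3 CPM with FK506. Its fall was 1.39 ± 0.20 (adjusted p 0.0218).

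The promoters of 6 of these genes are shown because they hold the core of the cAMP response element, which CREB binds, or the core that NFAT binds. They run from 250 bases before to 50 bases after the start that RefSeq gives in GRCm38.p6, 5′ to 3′ on the strand of the gene. Capitals mark TGACG, the letters GGAAA, or the reverse complement of either. The 6 were picked after the counts of matches were known.
Lbh promoter, chr17:72918055-72918354, plus strand: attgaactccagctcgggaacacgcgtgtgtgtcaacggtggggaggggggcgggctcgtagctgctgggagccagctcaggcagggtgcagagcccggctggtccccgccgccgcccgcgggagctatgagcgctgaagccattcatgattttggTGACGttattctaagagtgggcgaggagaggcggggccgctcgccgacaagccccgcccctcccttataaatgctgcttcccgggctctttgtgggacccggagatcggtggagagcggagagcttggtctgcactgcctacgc
Nr4a1 promoter, chr15:101266596-101266895, plus strand: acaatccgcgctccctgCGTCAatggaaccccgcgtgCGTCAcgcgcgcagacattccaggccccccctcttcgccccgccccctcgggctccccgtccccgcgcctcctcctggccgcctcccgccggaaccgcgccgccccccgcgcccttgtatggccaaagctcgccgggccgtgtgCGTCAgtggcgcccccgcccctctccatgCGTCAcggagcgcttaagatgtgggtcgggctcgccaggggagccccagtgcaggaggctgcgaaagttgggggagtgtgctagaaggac
Nr4a2 promoter, chr2:57123954-57124253, minus strand: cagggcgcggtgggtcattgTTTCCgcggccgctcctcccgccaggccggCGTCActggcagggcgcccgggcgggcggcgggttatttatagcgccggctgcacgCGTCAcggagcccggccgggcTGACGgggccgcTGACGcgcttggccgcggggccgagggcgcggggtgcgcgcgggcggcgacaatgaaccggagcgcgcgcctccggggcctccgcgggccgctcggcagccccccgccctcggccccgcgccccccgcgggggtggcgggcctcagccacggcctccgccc
Rgs2 promoter, chr1:144004100-144004399, minus strand: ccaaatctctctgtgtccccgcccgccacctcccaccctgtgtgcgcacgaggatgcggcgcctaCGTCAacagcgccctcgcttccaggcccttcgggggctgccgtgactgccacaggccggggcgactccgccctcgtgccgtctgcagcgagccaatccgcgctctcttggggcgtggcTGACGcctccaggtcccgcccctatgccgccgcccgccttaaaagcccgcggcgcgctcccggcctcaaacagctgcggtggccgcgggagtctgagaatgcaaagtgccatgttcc
G6pc2 promoter, chr2:69210823-69211122, plus strand: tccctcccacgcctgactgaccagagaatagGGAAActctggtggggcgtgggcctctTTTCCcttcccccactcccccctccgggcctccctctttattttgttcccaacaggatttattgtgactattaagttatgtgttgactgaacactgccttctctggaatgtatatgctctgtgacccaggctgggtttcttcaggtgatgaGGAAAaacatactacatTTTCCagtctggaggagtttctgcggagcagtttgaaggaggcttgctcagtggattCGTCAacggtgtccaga
Stk38l promoter, chr6:146724680-146724979, plus strand: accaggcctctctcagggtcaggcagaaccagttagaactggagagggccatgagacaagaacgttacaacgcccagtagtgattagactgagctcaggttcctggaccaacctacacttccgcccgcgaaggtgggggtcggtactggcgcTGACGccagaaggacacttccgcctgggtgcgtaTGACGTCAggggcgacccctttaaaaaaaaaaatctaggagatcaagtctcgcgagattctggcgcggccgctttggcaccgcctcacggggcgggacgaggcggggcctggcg

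The full element TGACGTCA stood in the Stk38l promoter, and TGACG on either strand was found 4 times in Nr4a1, 4 times in Nr4a2, 2 times in Rgs2 and 1 time in Lbh. The G6pc2 promoter held TGACG 1 time and GGAAA 4 times. Over the 30 genes that fell and had a RefSeq promoter, 15 (50%) held TGACG, against 20.8% of all 32851 promoters in the RefSeq table and 29.2% of the 14533 promoters of genes tested here. GGAAA was in 19 of the 30 (63.3%), against 61.3% of all promoters and 58.6% of those of genes tested. TGACGTCA was in 1 of the 30 (3.33%), against 1.79% and 2.94%. Each TGACGTCA also counts as TGACG, on both strands. These are matches of letters in a 300-base window and carry no measure of binding. No source used here names the genome build of the deposited tables. The RefSeq start lay within 50 bases of the start in those tables for 15 of the 31 genes matched. It lay 80894 bases away for Hivep3, 47294 for Atp2b4, 2334 for Vdr and 1118 for Hspa4l. The windows of Atp2b4 and Hspa4l are among the 15 that held TGACG.

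Vdr, Zfhx2 and Hivep3 encode further transcription factors. The vitamin D receptor gene Vdr went from 217 and 186 CPM to 94.5 and 91.1 CPM with FK506 (-1.11 ± 0.17, adjusted p 0.0323). The zinc-finger genes Zfhx2 and Hivep3 fell by 1.42 ± 0.19 and 0.87 ± 0.13 (adjusted p 0.0152 and 0.0323). Hivep3 was the 1 gene past the test with a change under 2-fold. The list of NFAT, CRTC and MEF2 factors also holds kinases and CREB-family genes. Of its 22 genes tested, the CREB-family gene Crem alone passed, and no NFAT, CRTC or MEF2 gene did. Among the others the smallest p belonged to Mef2d (-0.58 ± 0.16, adjusted p 0.246), and Nfatc2 stood at 0.40 ± 0.19 (adjusted p 0.494).

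Immediate early genes had no common direction. Of 46 tested, Rgs2, Nr4a1 and Nr4a2 fell, 24 members were above 0 and 22 below, and the median log2 change was 0.01, the same as over all genes. Npas4, a transcription factor gene induced by depolarization, stood at 77.3 and 60.1 CPM at 11G and at 25.6 and 41 CPM with FK506. This was -1.07 ± 0.24 and did not pass (adjusted p 0.149), although the libraries did not overlap. With FK506 Npas4 remained above diazoxide, where it was at 2.41 and 2.01 CPM, by 3.89 ± 0.29 on the log2 scale (adjusted p 0.0009). Fos was at 79.6 and 52.4 CPM at 11G against 45.6 and 40 CPM with FK506 (-0.64 ± 0.38, adjusted p 0.556). Without the 11G library of mouse 1 the Fos difference was -0.04. Egr1 was at 48.4 and 75.5 CPM against 69.3 and 108 CPM (0.51 ± 0.18, adjusted p 0.352), with overlapping groups.

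Most CREB and cAMP responsive genes were below 0. Rgs2, Nr4a2, Nr4a1, Irs2 and Crem fell among 34 tested. Of the 34, 28 members were below 0, 27 of them in both mice, while 5499 of all 16087 genes were lower in both. The median log2 change was -0.68 against 0.01 over all genes. This list, like the others, was chosen with earlier results of these data known. Pcsk1, the prohormone convertase that starts the processing of proinsulin, was at 413 and 152 CPM at 11G and at 125 and 47 CPM with FK506. Its difference of -1.71 ± 0.30 came close to the threshold (adjusted p 0.0676), and every FK506 library was below every 11G library. Fam46a stood at -1.31 ± 0.27 (adjusted p 0.118). Of the 5 that fell, Rgs2, Nr4a1 and Nr4a2 are also among the immediate early genes, so these counts share members.

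**Figure D2:**
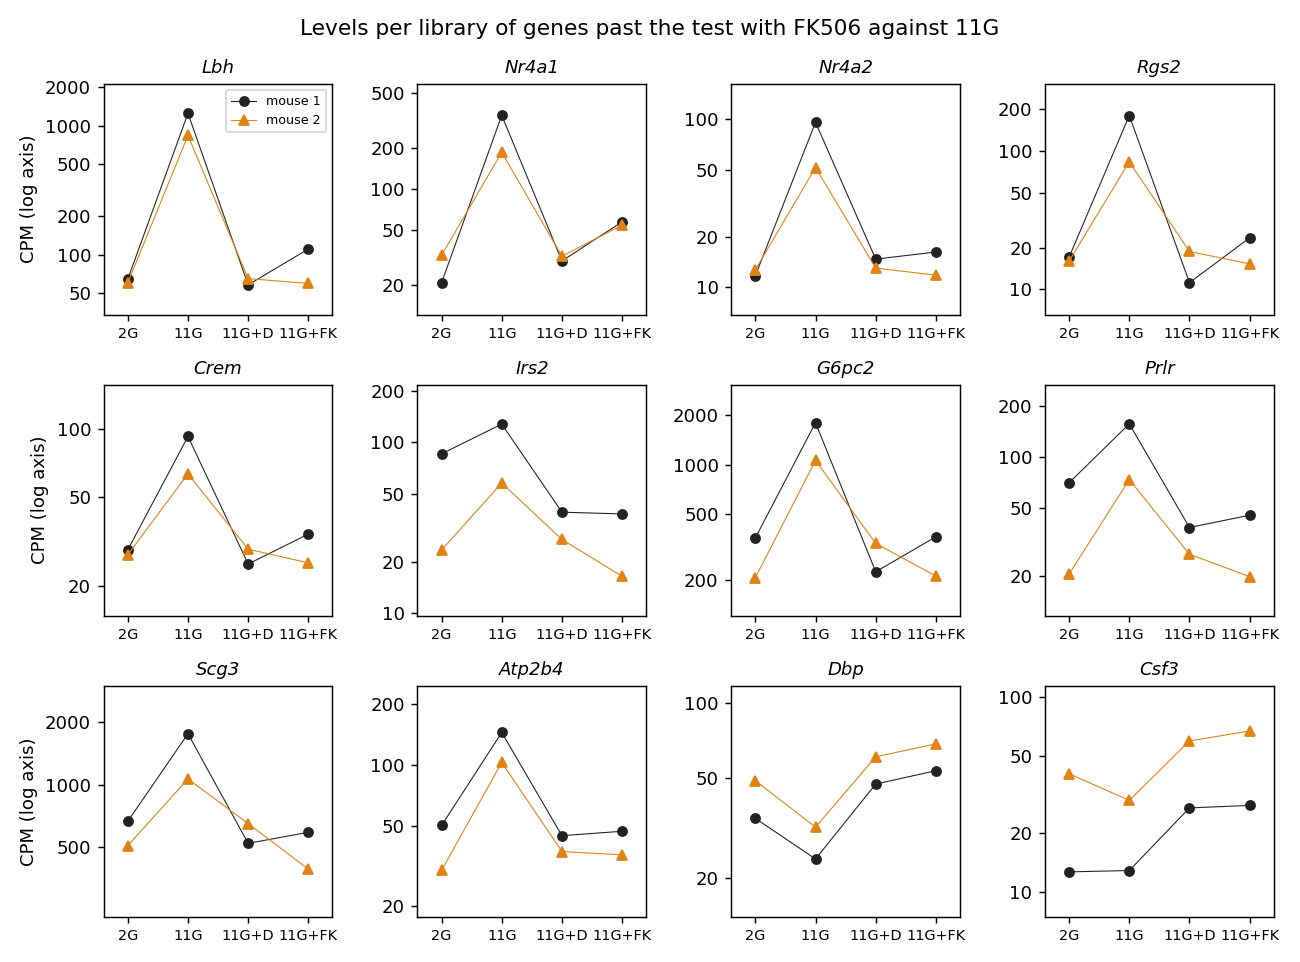
CPM on a log axis for 12 genes past the test, in the 2G, 11G, 11G+D and 11G+FK libraries of mouse 1 (black circles) and mouse 2 (orange triangles); lines join the libraries of a mouse. In the 10 genes that fell, 11G is the highest condition in both mice, and the distance of 11G+FK from 11G+D and 2G varies by gene. Irs2 with FK506 lies below 2G and Nr4a1 above 11G+D, neither past the test. Dbp and Csf3 are higher with FK506 than at 11G in both mice.

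Irs2 and Prlr act in the response of β cells to hormones. Irs2, the insulin receptor substrate that supports β-cell survival, went from 128 and 57.8 CPM at 11G to 38.1 and 16.4 CPM with FK506. It fell by 1.78 ± 0.26 (adjusted p 0.0253). Prlr, the prolactin receptor through which β cells respond to lactogens in pregnancy, went from 157 and 73.6 CPM to 45.4 and 19.7 CPM and fell by 1.85 ± 0.24 (adjusted p 0.0156). For both genes mouse 1 was higher than mouse 2 in each condition, and the FK506 libraries lay below both 11G libraries.

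Pde5a, the phosphodiesterase that degrades cGMP, was at 199 and 134 CPM at 11G and at 56.7 and 43.9 CPM with FK506. It fell by 1.71 ± 0.22 (adjusted p 0.0139). Gucy2c, the guanylate cyclase receptor that makes cGMP in response to guanylin peptides, fell by 1.30 ± 0.21 (adjusted p 0.0489). Of 33 RGS proteins and phosphodiesterases tested, Rgs2 and Pde5a were past the test, with a median log2 change of 0.01 over the list.

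Among kinases and small GTPase regulators, Stk38l (the NDR2 kinase) went from 239 and 135 CPM to 63.3 and 41.7 CPM with FK506, a fall of 1.82 ± 0.17 (adjusted p 0.0034). Rasgrp1, a Ras activator that diacylglycerol and calcium regulate, fell by 2.08 ± 0.24 (adjusted p 0.00968). Cdc42se2, an effector of the GTPase Cdc42, and Wnk4, a kinase that controls ion transporters, fell by 1.34 ± 0.16 and 1.19 ± 0.16. Spsb2 and Spsb4, SOCS-box adaptors of ubiquitin ligases, fell by 1.40 ± 0.18 and 2.59 ± 0.37. Tnfrsf23, a mouse decoy receptor for the death ligand TRAIL, fell by 1.48 ± 0.23.

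G6pc2 encodes the islet-specific glucose-6-phosphatase that opposes glucokinase and lowers glycolytic flux. Its level was 1798 and 1059.9 CPM at 11G and 364 and 209.8 CPM with FK506. At 2G it was 358 and 205 CPM. All FK506 and 2G values were thus below both 11G values. G6pc2 fell by 2.32 ± 0.32 with FK506 (adjusted p 0.0191), and it was the 1 gene past the test among 40 genes of glucose metabolism, whose median log2 change was -0.02.

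Scg3, secretogranin III of the granule membrane, went from 1765 and 1068 CPM at 11G to 590.2 and 392 CPM with FK506. It fell by 1.52 ± 0.25 (adjusted p 0.0466) and was the 1 gene past the test of 40 exocytosis and granule genes. Of these 40, 25 were below 0, against 7780 of all 16087 genes. Syt5, a synaptotagmin, stood at -0.81 ± 0.16 (adjusted p 0.0985) and Rab3a, a GTPase of granule release, at 0.75 ± 0.18 (adjusted p 0.178). No gene passed among 41 ion channels of electrical activity, whose median was -0.04; the smallest p belonged to the sodium channel gene Scn3a (-1.23 ± 0.22, adjusted p 0.0697).

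Atp2b4 and Slc38a4 encode membrane transport proteins. Atp2b4, a plasma membrane calcium pump, was at 145 and 103 CPM at 11G and at 47 and 35.9 CPM with FK506. It fell by 1.57 ± 0.15 (adjusted p 0.00373). Slc38a4, an amino acid transporter, went from 712 and 440.1 CPM to 283 and 144 CPM and fell by 1.46 ± 0.22 (adjusted p 0.0323).

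The β-cell hormones did not pass the test. Ins1 differed by -0.20 ± 0.31 (adjusted p 0.836), Ins2 by -0.15 ± 0.38 (adjusted p 0.908) and Iapp, islet amyloid polypeptide, by -0.46 ± 0.34 (adjusted p 0.636). Of 38 β-cell identity factors and hormones, G6pc2 and Prlr fell and 26 members were below 0, with a median of -0.12. Of the identity factors, Isl1 (-0.89 ± 0.21, adjusted p 0.169) and St18 (-1.14 ± 0.24, adjusted p 0.126) were lower in both mice without passing. Mlxipl, of the same list, was higher in both mice without passing (0.85 ± 0.18, adjusted p 0.131). Over the list, 20 members were lower in both mice and 11 were higher in both, against 5499 and 5585 of all 16087 genes. Of 28 β-cell genes tied to calcineurin and NFAT, Prlr, Irs2 and Scg3 fell and 23 were below 0, with a median of -0.23. Over all 16087 genes, 7780 were below 0. This list shares members with the identity list, such as Prlr and Neurod1, and with the granule list, such as Scg3. Neurod1 stood at -0.80 ± 0.24 (adjusted p 0.289).

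The other coding genes that fell have varied roles. Sgms2, the sphingomyelin synthase of the plasma membrane, and Lpgat1, an acyltransferase of lysophosphatidylglycerol, fell by 1.82 ± 0.21 and 1.11 ± 0.17. Hspa4l and Hspb6, a large and a small heat shock protein, fell by 1.14 ± 0.15 and 1.26 ± 0.15. Fam20a, a pseudokinase of the secretory pathway, fell by 1.10 ± 0.16, and the transmembrane protein genes Megf9, Chic1 and Itfg3 by 2.59 ± 0.31, 1.60 ± 0.24 and 1.23 ± 0.15. Megf9 went from 640.4 and 367 CPM at 11G to 117 and 54.8 CPM.

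Abhd16b had the lowest fitted change of all genes tested, -5.07 ± 0.47 (adjusted p 0.0034), at a low level. It stood at 16.6 and 5.17 CPM at 11G. The FK506 libraries held 9 and 2 of its reads, against 339 and 99 at 11G, so the size of the change rests on few reads with FK506. Whether the counting used strand is not stated. For genes that overlap another gene on the opposite strand the reads of the pair cannot then be told apart, which holds for Chic1, Cdc42se2, Spsb2, Spsb4, Irs2, Wnk4, Zfhx2, Hspb6, Crem and Dbp, and for Gm5860 and 1700016P03Rik below. Gm26952, antisense to Chic1, stood at -1.93 ± 0.63 (adjusted p 0.331), with -0.94 without the FK506 library of mouse 1 and -3.17 without that of mouse 2.

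Unnamed or noncoding gene models that fell were Gm5860, Gm16314 and 1700016P03Rik. Gm5860 went from 82.8 and 37.8 CPM at 11G to 11.2 and 6.69 CPM with FK506 and fell by 2.70 ± 0.22 (adjusted p 0.00149). Gm16314 fell by 3.48 ± 0.37 and lies inside Gnb1l on the same strand, so that reads could belong to either. 1700016P03Rik, on chromosome 11 from 75172560 to 75177633, went from 21.8 and 12.2 CPM to 3.31 and 3.7 CPM and fell by 2.24 ± 0.34 (adjusted p 0.0323).

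The genes of miR-212 and miR-132 lie inside 1700016P03Rik by RefSeq coordinates in GRCm38.p6. Their 3p arms are shown because they share the seed AACAGUC, bases 2 to 8, in capitals. Both are known as CREB-induced in neurons. The mature miRNAs were not measured here, and the values above are those of the host transcript.
mmu-miR-212-3p, chr11:75173443-75173464, plus strand: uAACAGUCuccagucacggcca
mmu-miR-132-3p, chr11:75173723-75173744, plus strand: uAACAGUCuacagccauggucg

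Dbp, a transcription factor of the PAR family that the circadian clock drives, was higher with FK506. Its level was 23.9 and 32 CPM at 11G and 53.7 and 68.7 CPM with FK506. At 2G it was 34.7 and 49 CPM, and with diazoxide 47.5 and 61 CPM. The FK506 libraries lay above both 11G libraries, and Dbp rose by 1.13 ± 0.14 (adjusted p 0.0127). The other clock genes did not pass: of 24 tested, 15 were above 0 with a median of 0.06, Per3 stood at 0.70 ± 0.17 (adjusted p 0.169), and Per1 and Npas2 at -0.70 ± 0.16 and -0.83 ± 0.22 (adjusted p 0.155 and 0.221).

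Csf3, the granulocyte colony-stimulating factor, was at 12.9 and 29.5 CPM at 11G and at 27.8 and 66.9 CPM with FK506. The groups overlapped, since the FK506 library of mouse 1 was below the 11G library of mouse 2, but within each mouse the level was higher with FK506. Csf3 rose by 1.14 ± 0.17 (adjusted p 0.0323). In a fit of all 12 libraries its adjusted p was 0.328. Of 42 cytokine, chemokine and NF-κB response genes, 32 were above 0, 30 of them in both mice, while 5585 of all 16087 genes were higher in both. Their median was 0.39 against 0.01 over all genes, and Csf3 was the 1 past the test. Cxcl2, a neutrophil chemokine, stood at 1.03 ± 0.26 (adjusted p 0.191), Cxcl1 at 0.76 ± 0.17 (adjusted p 0.143) and Il1b at 0.79 ± 0.20 (adjusted p 0.187).

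In the remaining pathway lists no gene passed. Genes of the ATF4 and amino acid response were above 0 in 30 of 35 cases, 27 in both mice, with a median of 0.28. Over all 16087 genes, 5585 were higher in both mice and 5499 lower in both. Trib3, a pseudokinase induced by ATF4, went from 88.7 and 150 CPM to 168 and 243 CPM (0.81 ± 0.14, adjusted p 0.0676), and Ddit3, which encodes CHOP, from 191 and 305 CPM to 335 and 656 CPM (0.97 ± 0.18, adjusted p 0.0776). Of 28 genes of the unfolded protein response, 26 were below 0, 20 in both mice, with a median of -0.23. Cell cycle genes had a median of -0.03 over 29 tested.

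**Figure D3:**
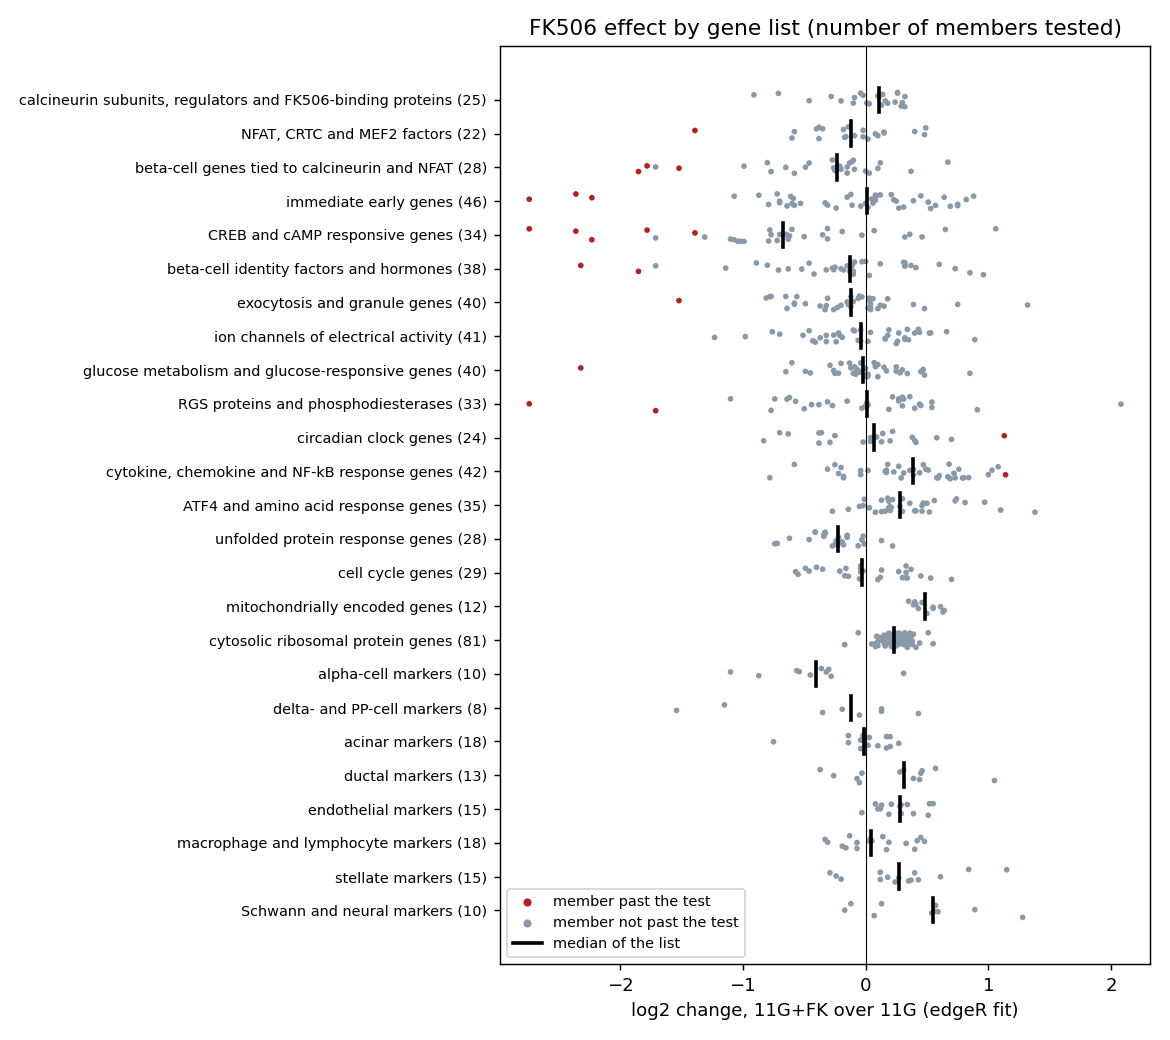
Log2 change with FK506 of each tested member of the 25 gene lists (x axis; number of members tested in brackets), with red points past the test, grey-blue points not past it and a black bar at the median of the list. CREB and cAMP responsive genes have the lowest median, -0.68. The members past the test, which the test picked for their change, lie to the left of the medians of their lists except Dbp and Csf3.

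RNA classes and cell type markers were summed in each library. Mitochondrially encoded genes took 1.99% and 1.92% of counts at 11G and 2.11% and 3.5% with FK506, so the difference lay in mouse 2, where their median log2 change was 0.83 against -0.01 in mouse 1. Cytosolic ribosomal protein genes took 3.91% and 4.84% at 11G and 4.69% and 6.23% with FK506, and 79 of 81 were above 0 with a median of 0.23. Of the 10 α-cell markers 9 were below 0 (median -0.40), and their summed share was 1.36% and 0.804% at 11G against 1.09% and 0.372% with FK506. In whole islets fewer cells of a type and less RNA per cell cannot be told apart.

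No marker of another cell type passed the test. Endothelial markers were above 0 in 14 of 15 cases (median 0.28), with a share of 0.119% and 0.184% at 11G and 0.152% and 0.225% with FK506. Stellate markers were above 0 in 12 of 15 cases, the median being 0.60 for mouse 1 and -0.03 for mouse 2, with a share of 0.0304% and 0.055% against 0.0463% and 0.0651%. Schwann and neural markers were above 0 in 8 of 10 (median 0.55), with shares between 0.0167% and 0.0223% in these 4 libraries. Medians were 0.31 for 13 ductal markers, 0.04 for 18 macrophage and lymphocyte markers, -0.01 for 18 acinar markers and -0.12 for 8 δ- and PP-cell markers. The part of these shifts in the genes above was not tested.

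The level with FK506 was then set against diazoxide and 2G. These comparisons use the same FK506 libraries as above, and the falls with FK506 and with diazoxide from 11G share the 11G libraries, so no overlap between them is counted as a result. The 35 genes were also picked for low values in these FK506 libraries. FK506 and diazoxide differed in 188 genes (1.17% of the genes tested), 126 of them higher with FK506 (0.783%) and 62 lower (0.385%). The count was 3 without the FK506 library of either mouse, 5 without the replicate block, 486 without the diazoxide library of mouse 1 and 66 without that of mouse 2. Of the 35 genes, 33 did not pass this test, 2 were higher with FK506 and 0 were lower.

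The 2 that differed were noncoding models. Gm5860 was at 2.83 and 2.18 CPM with diazoxide and stood higher with FK506 by 1.81 ± 0.24 (adjusted p 0.0112). 1700016P03Rik was at 0.525 and 0.886 CPM with diazoxide and stood higher with FK506 by 2.32 ± 0.42 (adjusted p 0.0342). Lbh differed by 0.41 ± 0.24 between FK506 and diazoxide (adjusted p 0.422), Nr4a2 by 0.00 ± 0.23 (adjusted p 0.996), G6pc2 by -0.06 ± 0.31 (adjusted p 0.947) and Atp2b4 by 0.01 ± 0.15 (adjusted p 0.985). A p that misses the threshold does not show that levels are equal, and Nr4a1 (0.85 ± 0.29, adjusted p 0.19), Spsb4 (1.83 ± 0.43, adjusted p 0.0824) and Slc38a4 (-0.92 ± 0.22, adjusted p 0.086) show the size of difference that did not pass.

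Genes outside these 35 also differed between FK506 and diazoxide. Txnip, a glucose-induced inhibitor of thioredoxin, was at 300.3 and 184 CPM with FK506 and at 1549 and 875 CPM with diazoxide, a difference of -2.31 ± 0.36 (adjusted p 0.0174). At 11G it was at 552 and 235 CPM. Ddit3 and Trib3 were higher with FK506 than with diazoxide by 1.51 ± 0.19 and 1.12 ± 0.14 (adjusted p 0.00933 and 0.00957). Rgs16, a regulator of G-protein signalling, was lower by 1.25 ± 0.18 (adjusted p 0.0148). Cyp1a1, the cytochrome of the aryl hydrocarbon response, was at 77.2 and 67.9 CPM with FK506 and at 17 and 5.79 CPM with diazoxide, without overlap (adjusted p 0.0168).

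Against 2G, 332 genes passed (2.06%), 237 higher with FK506 (1.47%) and 95 lower (0.591%). The count was 7 without the FK506 library of mouse 1, 4 without that of mouse 2 and 5 without the replicate block. It was 129 without the 2G library of mouse 1 (91 higher and 38 lower) and 162 without that of mouse 2, where the balance turned to 72 higher and 90 lower. The 2G label names no time, so incubation cannot be told apart from glucose and drug here. Of the 35 genes that fell with FK506, 31 did not pass against 2G, 0 were lower and 4 were higher: Gm5860 by 1.43 ± 0.23, 1700016P03Rik by 3.03 ± 0.44, Spsb4 by 2.51 ± 0.45 and Hspb6 by 0.92 ± 0.16. Csf3 was also above 2G with FK506, by 0.91 ± 0.17 (adjusted p 0.0333). Npas4 was at 1.28 and 1.74 CPM at 2G and stood 4.44 ± 0.30 higher with FK506 (adjusted p 0.000224). Irs2 lay below 2G by 0.88 ± 0.25 without passing (adjusted p 0.0995).

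**Figure D4:**
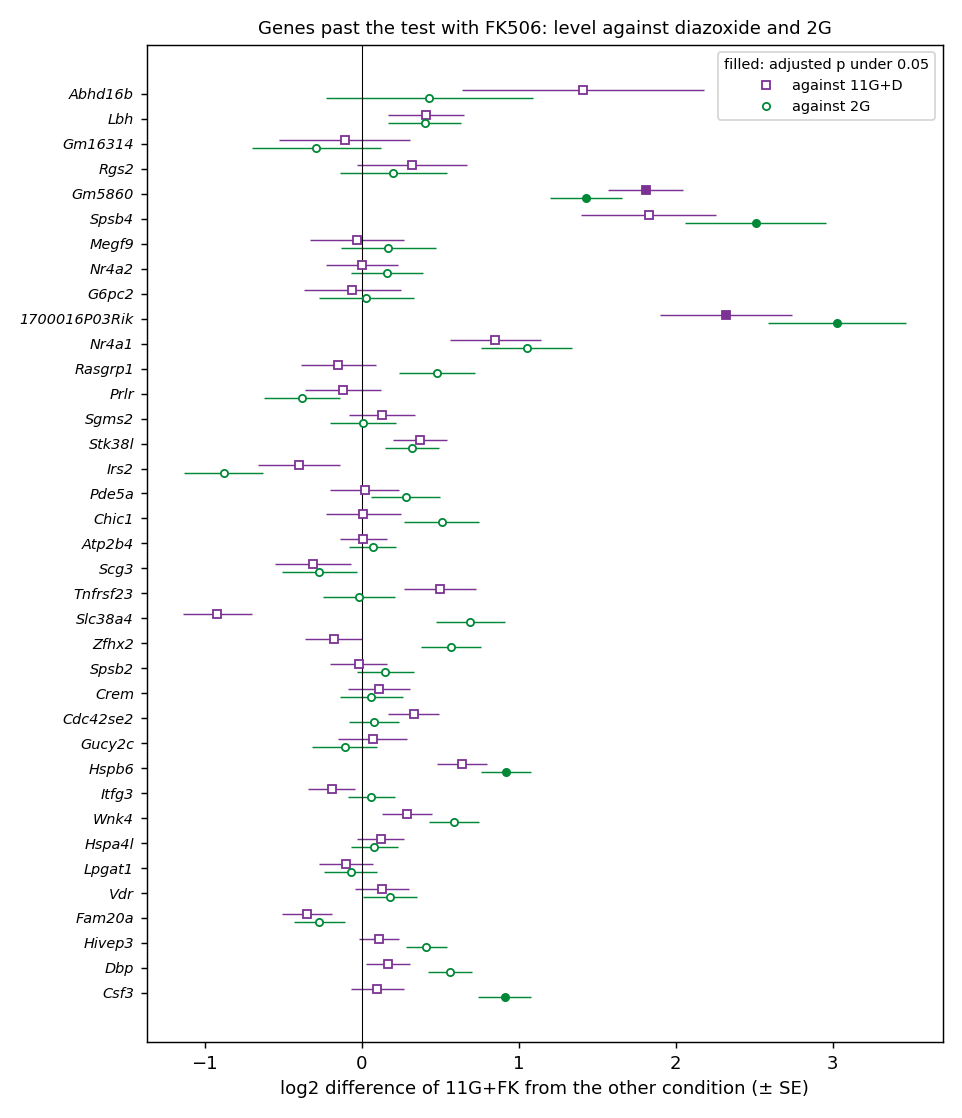
Log2 difference (± standard error) of the level with FK506 from the level with diazoxide (purple squares) and from 2G (green circles) for the 37 genes past the test against 11G, ordered by their change against 11G; filled marks have an adjusted p under 0.05. Most marks lie within 1 of 0, and Gm5860 and 1700016P03Rik are above 0 and filled in both comparisons.

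Several larger differences did not pass the test and are given as values. Of the highest with a mean of at least 5 FPKM, Adora2b, the adenosine A2B receptor, went from 11.7 and 9.09 CPM to 32.5 and 18.7 CPM (1.28 ± 0.24, adjusted p 0.0733). Wnt4 stood at 1.11 ± 0.20 (adjusted p 0.0707), the peptide gene Vip at 1.45 ± 0.36 (adjusted p 0.187) and Ankrd37, a hypoxia-induced gene, at 1.19 ± 0.27 (adjusted p 0.15). Cyp1a1 stood at 1.09 ± 0.42 (adjusted p 0.392), with 1.87 without the FK506 library of mouse 1 and 0.06 without that of mouse 2. Npy and Sncg stood at 1.20 ± 0.49 and 1.67 ± 0.55, and between 0.36 and 2.48 and between 0.89 and 2.77 when 1 of the 11G libraries was left out. Among the lowest were Serpina7, the thyroxine-binding globulin, at -1.55 ± 0.29 (adjusted p 0.0736), and Rprml at -1.56 ± 0.38 (adjusted p 0.178), with -0.95 without the FK506 library of mouse 1 and -2.28 without that of mouse 2.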

How the data were processed

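Per the labels' protocols, islets were freed with collagenase and a company prepared and sequenced the libraries. No source used here names the aligner, counting tool, strand setting or genome build. Per the file headers, each of the 8 deposited tables compares 2 libraries of 1 mouse and gives, per gene, the raw read count and the FPKM. The tables also hold normalized counts by the authors, a signal that is a constant multiple of the raw counts and was used only in that check. Columns were matched to samples by the condition and mouse in their headings.

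The raw counts were joined (24503 genes; a gene missing from a table counts as 0) and tested by the quasi-likelihood method of edgeR 4.0.16 (R 4.3.3), two-sided, with TMM factors, genes kept by filterByExpr (at least 10 reads by its rule and 15 in all), group plus mouse as a block, and Benjamini-Hochberg adjustment over the 16087 genes tested. The 8 wild-type libraries entered 1 fit with 3 residual degrees of freedom and a biological coefficient of variation of 16.2%. A standard error is the log2 change over the square root of F. Changes per mouse use log2 CPM with a prior count of 1. The mouse numbers pair the libraries because the labels number the same mice across conditions; deviations from the group means of same-numbered libraries correlated across genes by 0.145 to 0.456 over the pairs of groups, and by 0.402 for 11G and 11G+FK. FPKM deposited by the authors served only as a minimum for naming genes.

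Named were every gene past the test, then the 12 largest increases and 6 largest decreases at a mean of at least 5 FPKM, members of the calcineurin and NFAT lists, members of other lists past the test or with the 4 smallest p, and a fixed set of islet and activity genes; not every gene that the rule allows is printed. The libraries compared, the 25 gene lists and this rule were chosen with earlier results of these data known. Promoters and miRNAs are from RefSeq tables in GRCm38.p6. The fits were also run on simulated counts drawn with the same spread for every gene, and that run is not used here as support. Each result was also computed with DESeq2 1.42.0 and the block, in edgeR without the block, with RLE factors, with low counts kept or with at least 10 CPM asked of 2 libraries, with all 12 libraries or just the 2 groups in the fit, and with each library left out in turn.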

Additional observations from a re-analysis of the deposited data

How the results depend on the processing

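The number of genes past the test depended on the settings, and so did the balance of higher and lower genes among them. For FK506 against 11G, against diazoxide and against 2G, the counts of 37, 188 and 332 became 1, 5 and 5 with no replicate block, 234, 493 and 769 with DESeq2 and the block, 309, 617 and 992 with no filter on low counts, and 2846, 536 and 1026 in fits of the 2 groups compared alone, which have 1 residual degree of freedom. Against 11G, 2 of the 37 genes were higher with FK506, and 61 of the 234 with DESeq2. It was 95 of the 309 with no filter and 1348 of the 2846 in the fit of the 2 groups alone. With all 12 libraries the first count was 58, and with a filter at 10 CPM the third was 184. Leaving out each library in turn gave 0 to 11, 3 to 486 and 4 to 162 genes; a group left with 1 library is then assumed to vary like the others. Without the FK506 library of mouse 2, where 0 genes passed in edgeR against 11G, 613 had an unadjusted p under 0.05, against 1735 with all libraries. DESeq2 and the fit of the 2 groups alone also passed all 37 genes, and all 37 kept their direction in each fit without 1 library, but 0 of them passed in all 4 such fits. All these fits reuse the libraries by which the 37 genes were chosen, so they are no separate support. Under the filter at 10 CPM, Irs2, Chic1, Slc38a4, Lpgat1, Scg3, Gucy2c, Tnfrsf23 and 1700016P03Rik had adjusted p from 0.0527 to 0.0674.

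Of the genes named, 3 changed sign in some setting, none of them past the test in the fit reported. Fkbp1a stood at -0.02 and at 0.01 under the 10 CPM filter, 0.05 without the 11G library of mouse 1 and 0.10 without the FK506 library of mouse 2, in a range of -0.14 to 0.10 over the fits without 1 library. Ins2 stood at 0.07 and 0.04 without those same libraries, in a range of -0.37 to 0.07. Chil4 ranged from -1.73 without the FK506 library of mouse 1 to 5.24 without the 11G library of mouse 2. The causes were not tested. Genes with few reads, such as Abhd16b, are also limited by counting error.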

Other observations

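There were 12977 genes at a mean of at least 1 FPKM. Of those that did not pass the test, 39 were at least 2-fold lower in both mice and 27 at least 2-fold higher. They were looked at after their values were seen. Among the lower ones, Prkar1a, the regulatory subunit that holds protein kinase A inactive, was at 1230.4 and 814 CPM at 11G and at 479 and 381 CPM with FK506 (-1.24 ± 0.22, adjusted p 0.0697). Prox1, a homeobox factor of islet development, stood at -1.35 ± 0.23 (adjusted p 0.0672), Pak3, a kinase downstream of Cdc42 and Rac, at -1.27 ± 0.24 (adjusted p 0.0751), and Pxylp1 at -1.30 ± 0.23 (adjusted p 0.0697).

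Among the higher ones, Prph, which encodes the neuronal intermediate filament peripherin, was at 4.32 and 3.08 CPM at 11G and at 10.7 and 18.3 CPM with FK506 (1.88 ± 0.48, adjusted p 0.199), and Nsg2, a neuronal vesicle protein, at 3.38 and 1.93 CPM against 7.12 and 10.7 CPM (1.66 ± 0.44, adjusted p 0.218). Their differences ranged from 1.28 to 2.57 and from 0.96 to 2.57 when 1 of the 11G libraries was left out. With diazoxide Prph was at 14.3 and 12.7 CPM and Nsg2 at 7.71 and 10.3 CPM.

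Chil4, a chitinase-like protein gene, moved in opposite directions in the 2 mice, with 14 reads at 11G and 835 with FK506 in mouse 1 and with 86 and 15 reads in mouse 2. It was picked out after its values were seen and did not pass the test (adjusted p 0.513).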
